A study of Homo sapiens with 6 samples.

Results

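The Notch receptors NOTCH1, NOTCH2, NOTCH3 and NOTCH4, the ligands JAG1, JAG2 and DLL1 and the targets HES1, HEY1 and NRARP were followed in MDA-MB-231 cells with and without TAZ knockdown. These 10 genes were taken by symbol from the 46427 genes of the expression table, and all 10 were among the 16966 that passed the expression filter. MDA-MB-231 is an established line of metastatic human breast cancer with mesenchymal features. In the TAZ-siRNA group (n = 3 cell preparations), cells of wild-type genotype were transfected with the siGENOME siRNA against human WWTR1, the gene that encodes the transcriptional coactivator TAZ, using DharmaFECT4. The control-siRNA group (n = 3 cell preparations) shared the line and the low-glucose medium with serum, and received control siRNA in place of the siRNA against WWTR1. The knockdown was transient, in a single line and with a single siRNA product, and its dose and duration for the sequenced cells are not given in the sources used here.

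Notch receptors are transmembrane proteins that are cut by a furin-type protease on their way to the cell surface and are switched on by ligands of the Jagged and Delta families on a neighbouring cell. Ligand binding exposes the receptor to ADAM proteases and then to gamma-secretase, and the released intracellular domain enters the nucleus, where it joins the DNA-binding protein RBPJ and Mastermind-like coactivators at genes of the HES and HEY families. In breast tissue the pathway is known for its part in choosing between luminal and basal fates, and JAG1 is a ligand often studied in basal-like breast cancer.

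WWTR1 itself was the check of the knockdown. Its count was 12828, 11808 and 9228 in control-siRNA replicates 1, 2 and 3 and 1263, 840 and 843 after TAZ-siRNA, a log2 fold change of -3.53 (adjusted p = 2.5e-10, edgeR's quasi-likelihood test with Benjamini-Hochberg adjustment). Control libraries held 49662504 to 66769103 counts and knockdown libraries 48307548 to 71749634, so that a floor of 3 counts lay at 0.0411 to 0.0618 CPM (counts relative to library size). Of all genes tested, 22.1% differed between the groups at an adjusted p under 0.05, with 11.9% higher and 10.2% lower after TAZ-siRNA, and the median log2 fold change was -0.0054. TAZ-siRNA replicate 3 stood apart, and without it 33.7% of genes differed. Keratins KRT8, KRT18 and KRT19 were present at 98.3 TPM or more and vimentin (VIM) at 3611 TPM or more, whereas EPCAM lay at 1.14 to 2.25 TPM and CDH1, the epithelial cadherin, at 0.252 TPM or less. Of the markers of other cells, DCN, PTPRC and CD3E were listed at 0 in every library, the 4 fibroblast markers summed to 0.0384 to 0.154 TPM, and the 4 endothelial markers to 2.35 to 4.0 TPM. The 4 leukocyte markers summed to 94.2 to 100.3 TPM in controls and 72.6 to 78.5 TPM after knockdown, nearly all of it CD68, and its part in the results was not tested.

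JAG1 was the one Notch gene of the 10 that passed the test (adjusted p under 0.05): it rose 1.26-fold after TAZ knockdown, and it was also the most abundant of them. The 4 receptors and the targets HES1, HEY1 and NRARP did not pass the test in either direction, nor did JAG2 and DLL1. The share called was 1 of 10 (10%), the 1 being higher, beside 22.1% of all genes called and 11.9% called higher. In 2 of the 10 genes, JAG1 and NOTCH4, the groups of libraries did not overlap, beside 39.6% of all genes (20% with every TAZ-siRNA library above the controls and 19.6% with every one below). The median log2 fold change over the 10 was 0.08, beside -0.0054 over all genes tested. In bulk RNA, fewer cells of a type and less RNA per cell cannot be told apart.

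**Figure D1:**
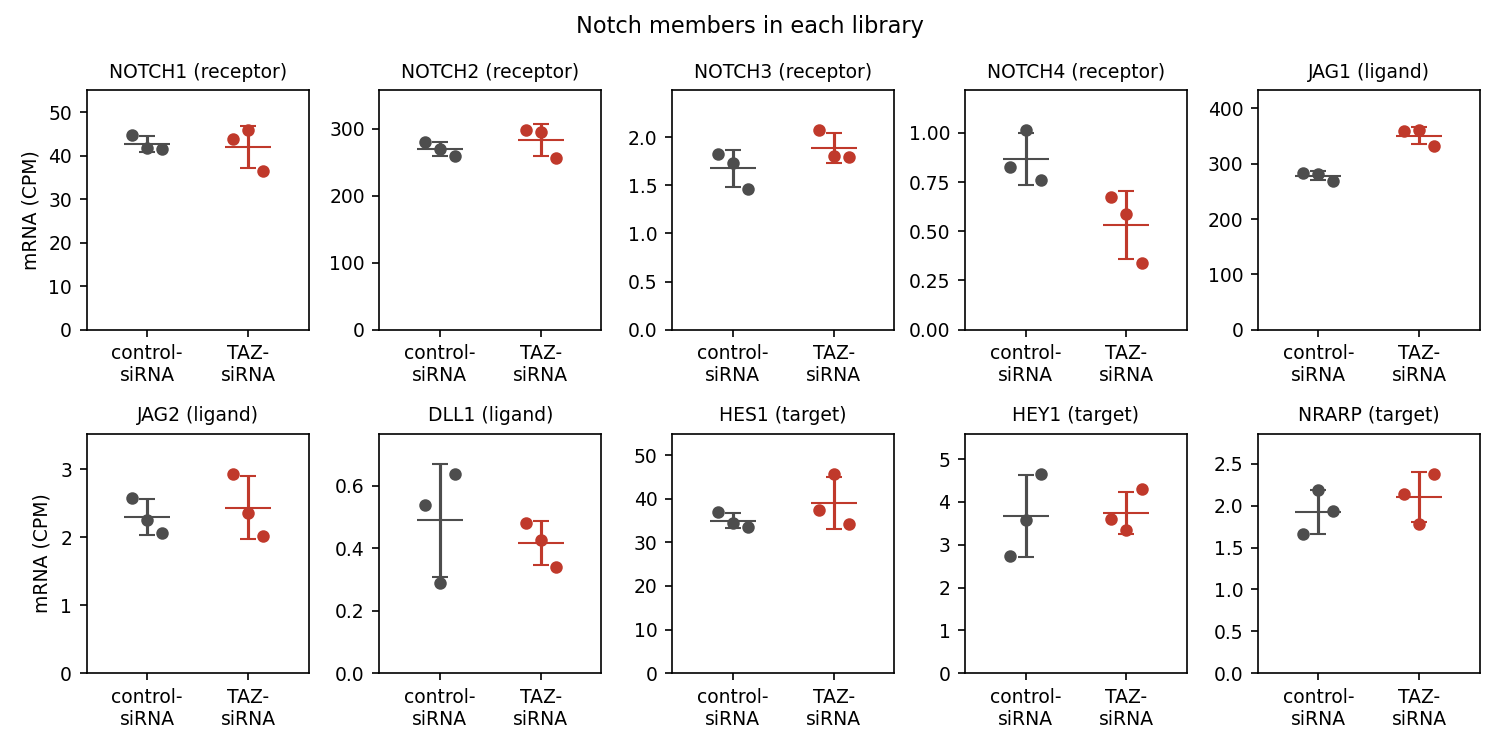
Expression (y axis, CPM, counts scaled to library size) of each of the 10 Notch genes in the control-siRNA (grey) and TAZ-siRNA (red) libraries, 3 of each, drawn in the order of replicates 1, 2 and 3, with the mean (long bar) and SD (whiskers). JAG1 is 269 to 284 CPM in the control libraries and 333 to 360.4 CPM after TAZ-siRNA, and NOTCH4 is lower in every TAZ-siRNA library at levels of about 1 CPM or less, while the groups overlap for the other 8 genes.

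The sequences just upstream of JAG1 and HES1 are shown because JAG1 was the one Notch gene called and HES1 is the canonical target by which Notch output is read. Each is the stretch of 250 bases that ends 1 base before the RefSeq start of the gene in GRCh38.p14, written 5′ to 3′ on the strand of the gene, with matches to the RBPJ core in capitals. JAG1 lies at chr20:10674000-10674249 on the minus strand and HES1 at chr3:194135898-194136147 on the plus strand.
JAG1: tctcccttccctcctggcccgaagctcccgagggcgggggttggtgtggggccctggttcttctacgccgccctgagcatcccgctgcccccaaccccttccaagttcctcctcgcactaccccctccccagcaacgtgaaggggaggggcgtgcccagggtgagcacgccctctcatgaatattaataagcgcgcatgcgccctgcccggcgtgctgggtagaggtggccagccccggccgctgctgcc
HES1: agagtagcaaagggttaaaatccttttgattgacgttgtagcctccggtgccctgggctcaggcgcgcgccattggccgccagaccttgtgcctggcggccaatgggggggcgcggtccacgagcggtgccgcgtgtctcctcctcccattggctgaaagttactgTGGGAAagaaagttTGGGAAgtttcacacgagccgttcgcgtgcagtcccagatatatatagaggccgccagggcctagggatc
The HES1 window held the RBPJ core TGGGAA at 2 places, 84 to 79 and 70 to 65 bases upstream of the start, both on the plus strand, and the JAG1 window held none on either strand. Over both strands, this core was present in 20.8% of 35116 RefSeq windows of the same length. Windows were found for 8 of the 10 genes, and among these HES1 was the one with the RBPJ core. The core GGAATG, which is bound by the TEAD factors that partner TAZ and shares letters with the RBPJ core where the pair overlaps, was in none of the 8 windows and in 11.9% of all windows. The AP-1 site TGACTCA was found once, 18 to 12 bases upstream of NOTCH4, and in 4.2% of all windows. The N box CACNAG, which HES repressors bind, occurred 3 times upstream of HES1, once upstream of NOTCH3 and once upstream of NOTCH4, against 32.0% of windows with at least 1 match. A match of letters in these windows is a description and not evidence of binding.

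Among the receptors, NOTCH2 carried most of the message. NOTCH2 (chr1:119911553-120069703), a broadly expressed receptor, stood at 54.4, 52.1 and 48 TPM (a level per transcript length) among the controls and at 60.6, 59.8 and 48.2 TPM after TAZ-siRNA. The libraries overlapped, with TAZ-siRNA replicates 1 and 2 above every control library and replicate 3 within their range in TPM and below it in CPM, at 256. In CPM its level was 269 ± 10.2 with control-siRNA and 283 ± 23.5 with TAZ-siRNA (mean ± SD, n = 3 each), and the log2 fold change of 0.07 (95% interval -0.08 to 0.22) did not pass the test (adjusted p = 0.479, edgeR's quasi-likelihood test). Without TAZ-siRNA replicate 3 NOTCH2 passed it, at a log2 fold change of 0.14 (adjusted p = 0.033, edgeR), and its value turned to -0.06 once GC content and length were corrected for.

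NOTCH2 shares sequence with its partial human copies NOTCH2NLA, NOTCH2NLB, NOTCH2NLC and NOTCH2NLR, so that reads could have been split between them. Of the 11326 windows of 100 bases in its longest transcript, 205 (1.81%) matched a copy exactly, all within bases 84 to 567 of the transcript. None of the 4 copies passed the test with edgeR or DESeq2, beside 22.1% and 23.8% of all genes. None of the 4 had an unadjusted p under 0.05, beside 6069 of all 16966 genes tested. The log2 fold changes of the copies lay between -0.10 and -0.04. Summing NOTCH2 with the copies left its log2 fold change at 0.06 (adjusted p = 0.596, edgeR).

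NOTCH1 (chr9:136494433-136546048), the receptor with the best-known role in T-cell leukaemia, was at 10.3, 9.60 and 9.19 TPM among the controls and 10.7, 11.1 and 8.19 TPM with TAZ-siRNA. The lowest and the highest of these 6 values were both TAZ-siRNA libraries. Its CPM was 42.7 ± 1.79 against 42.1 ± 4.90, a log2 fold change of -0.02 with an interval of -0.20 to 0.16 (adjusted p = 0.882, edgeR). Corrected for GC content and length, the value became -0.16 and passed the test (adjusted p = 0.029, edgeR).

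NOTCH3 (chr19:15159038-15200995), known mainly from vascular smooth muscle, and NOTCH4 (chr6:32194843-32224067), known mainly from endothelium, were scarce. NOTCH3 counts were 122, 108 and 71 with control-siRNA and 151, 89 and 100 with TAZ-siRNA, and its log2 fold change of 0.17 (interval -0.18 to 0.53) did not pass the test (adjusted p = 0.487, edgeR). NOTCH4 counts were 55, 63 and 37 with control-siRNA and 49, 29 and 19 with TAZ-siRNA. Scaled to library size, NOTCH4 in each knockdown library lay below all of the controls, at 0.533 ± 0.173 CPM against 0.866 ± 0.130 CPM. The log2 fold change was -0.69 with a wide interval of -1.31 to -0.07, and its unadjusted p of 0.032 became 0.104 after adjustment over all genes (edgeR). Corrected likewise, it passed the test at -0.81 (adjusted p = 0.043, edgeR). It was smaller without TAZ-siRNA replicate 3, at -0.45 (adjusted p = 0.223, edgeR). With limma the NOTCH4 value was -0.06 on log2(FPKM + 1) and -0.33 on log2(FPKM + 0.1). At so low a level the added constant itself shrinks the log2 difference, so that these 2 values are not comparable in size with those of edgeR.

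At its 3′ end, 681 bases of the NOTCH4 span lie within the span of GPSM3, a gene of G-protein signalling read from the same strand, and whether reads were divided between them correctly was not tested. GPSM3 was more abundant than NOTCH4, with counts of 1473, 1339 and 1111 among the controls and 1046, 700 and 796 after TAZ-siRNA. It fell with TAZ knockdown by 0.63 on the log2 scale (adjusted p = 1.7e-04, edgeR), close to the fitted value of NOTCH4.

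Among the ligands, JAG1 (chr20:10637684-10673999) was nearly the only one expressed. Its level was 105, 104 and 95.7 TPM in controls 1, 2 and 3 and 140.4, 139.9 and 119.9 TPM after knockdown. Every TAZ-siRNA library was above every control library, and replicate 3 was the lowest of each group. In CPM, JAG1 rose from 278 ± 8.20 to 351 ± 15.6, a log2 fold change of 0.33 (SE 0.056, interval 0.21 to 0.46, adjusted p = 0.0024, edgeR's quasi-likelihood test). The call held when each of the 6 libraries was left out, at log2 fold changes of 0.31 to 0.37, and in all 17 alternatives together, with adjusted p between 1.7e-07 and 0.021. Its lowest value among the 17, 0.22, came from correcting for GC content and length. The size of the rise stayed under 1.5-fold over the whole interval. JAG1 was quantified as a single transcript, and MIR6870, a miRNA gene inside its span, had a count of 0 in every library.

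JAG2 (chr14:105140981-105168776), a second Jagged ligand, was at 0.996, 0.870 and 0.743 TPM with control-siRNA and 1.2, 0.947 and 0.750 TPM with TAZ-siRNA. Its groups overlapped, and the log2 fold change of 0.09 (interval -0.29 to 0.47) did not pass the test (adjusted p = 0.756, edgeR). DLL1 (chr6:170282200-170291078), a Delta ligand, had counts of 36, 18 and 31 with control-siRNA and 35, 21 and 19 with TAZ-siRNA. Its log2 fold change of -0.21 did not pass the test (adjusted p = 0.697, edgeR), and its interval of -0.96 to 0.54 shows that a fall of 1.5-fold could not be told from no change at this depth. FAM120B, which overlaps the span of DLL1 by 376 bases on the opposite strand, had counts of 2023 to 2955 in controls and 2154 to 3126 after knockdown.

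Of the ligand message per length, JAG1 took 98.8, 99.0 and 98.9% among the controls and 99.0, 99.1 and 99.2% after knockdown. The difference in means of 0.216 percentage points did not pass an exact permutation test over libraries (p = 0.2, two-sided), which cannot go below 0.1 with 3 libraries against 3. NOTCH2 held 83.1 to 83.4% of the receptor message in controls and 83.6 to 84.7% after knockdown. Its share was higher in every TAZ-siRNA library, by 0.904 points in the mean, at the smallest p the design allows (exact permutation p = 0.1). NOTCH1 made up most of the rest of the receptor message, at 15.4 to 15.9% and 14.4 to 15.5%, and the NOTCH4 share lay below its control range in every TAZ-siRNA library, at means of 0.444% in controls and 0.261% after knockdown (exact permutation p = 0.1).

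HES1 (chr3:194136148-194138732), a repressor of the basic helix-loop-helix family and a direct Notch target in many tissues, was the most abundant of the 3 targets. It was at 51.6, 48 and 45.1 TPM among the controls and at 55.1, 66.9 and 46.4 TPM after knockdown. TAZ-siRNA replicates 1 and 2 were above every control library and replicate 3 was within their range. HES1 was 35.0 ± 1.71 CPM with control-siRNA and 39.1 ± 5.97 CPM with TAZ-siRNA, and the log2 fold change of 0.16 (interval -0.06 to 0.37) did not pass the test (adjusted p = 0.273, edgeR). Single libraries moved HES1 both ways: it was 0.25 and passed without TAZ-siRNA replicate 3 (adjusted p = 0.027, edgeR), and 0.04 without TAZ-siRNA replicate 2 (adjusted p = 0.778, edgeR).

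HEY1, a related repressor encoded on chromosome 8, varied more between replicates than between groups. Its TPM was 2.69, 3.56 and 4.44 among the controls and 3.78, 3.41 and 4.15 after knockdown, with the lowest and the highest value both among the controls. The log2 fold change was 0.04 (interval -0.36 to 0.45, adjusted p = 0.891, edgeR). NRARP (chr9:137299631-137302271), which encodes an ankyrin-repeat protein that binds the Notch intracellular domain and dampens its signal, was at 1.38, 1.82 and 1.54 TPM with control-siRNA and 1.88, 1.55 and 1.92 TPM with TAZ-siRNA. The NRARP groups overlapped and the log2 fold change of 0.13 (interval -0.25 to 0.51) did not pass the test (adjusted p = 0.638, edgeR). Leaving out control-siRNA replicate 1 or TAZ-siRNA replicate 3 took NRARP to 0.03 or 0.04, and leaving out replicate 2 of either group took it to 0.23. None of the 3 targets had an unadjusted p under 0.05, beside 6069 of all 16966 genes tested. DESeq2 called none of the 3, beside 23.8% of all genes.

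**Figure D2:**
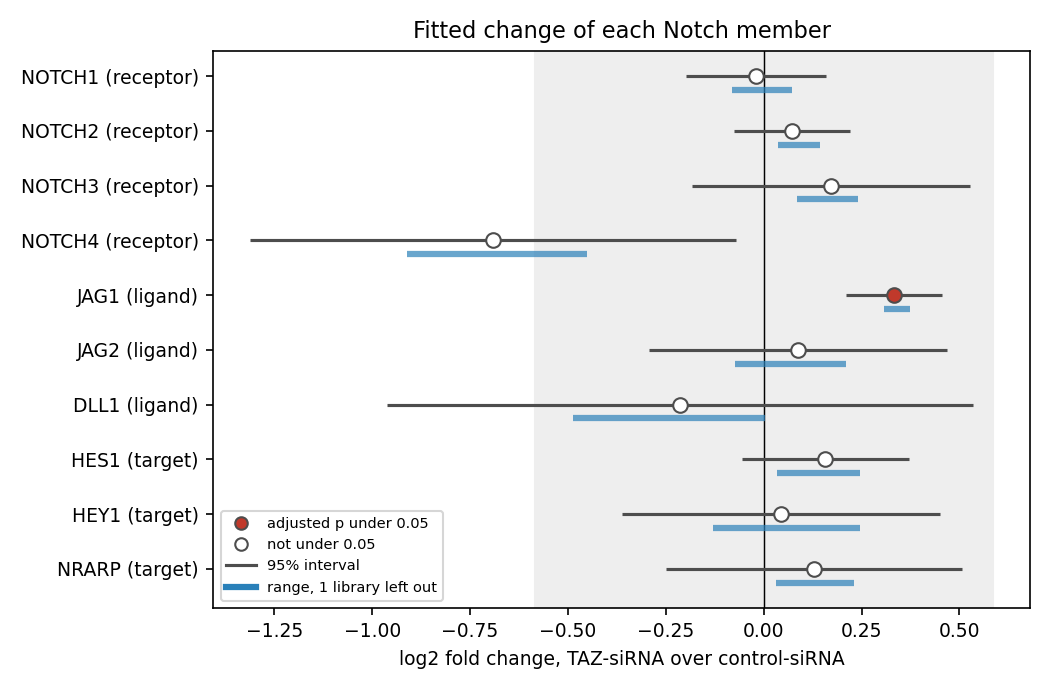
Log2 fold change (x axis, TAZ-siRNA over control-siRNA, edgeR) of each Notch gene (y axis), with the 95% interval (grey line) and the range when each library was left out in turn (blue bar); filled points have an adjusted p under 0.05, and the shaded band marks changes under 1.5-fold. JAG1, at 0.33, is the one filled point, 8 of the 10 intervals lie inside the band, and those of NOTCH4 and DLL1 reach out of it.

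For the 9 genes that were not called, the intervals bound what these libraries could have missed. The interval lay within a 1.5-fold change in both directions for 7 of the 9, namely NOTCH1, NOTCH2, NOTCH3, JAG2, HES1, HEY1 and NRARP. For NOTCH4 and DLL1 it reached beyond 1.5-fold on the lower side. P-values measure the spread between these preparations, since no source used here says whether they came from separate days of culture.

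The order of the levels was the same in both groups down to the scarcest genes. Per length, JAG1 led with 102 ± 5.32 TPM in the control-siRNA group and 133 ± 11.7 TPM in the TAZ-siRNA group. NOTCH2 and HES1 followed at 51.5 and 48.2 TPM with control-siRNA and at 56.2 and 56.1 TPM with TAZ-siRNA, and their ranges over libraries overlapped in both groups, so that their order was not resolved. NOTCH1, HEY1, NRARP, JAG2 and NOTCH3 came next, each with a range clear of its neighbours, from 9.70 TPM for NOTCH1 to 0.418 TPM for NOTCH3 in the control group. NOTCH4 and DLL1 were last, at 0.275 and 0.271 TPM with control-siRNA and 0.178 and 0.244 TPM with TAZ-siRNA, again with overlapping ranges.

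**Figure D3:**
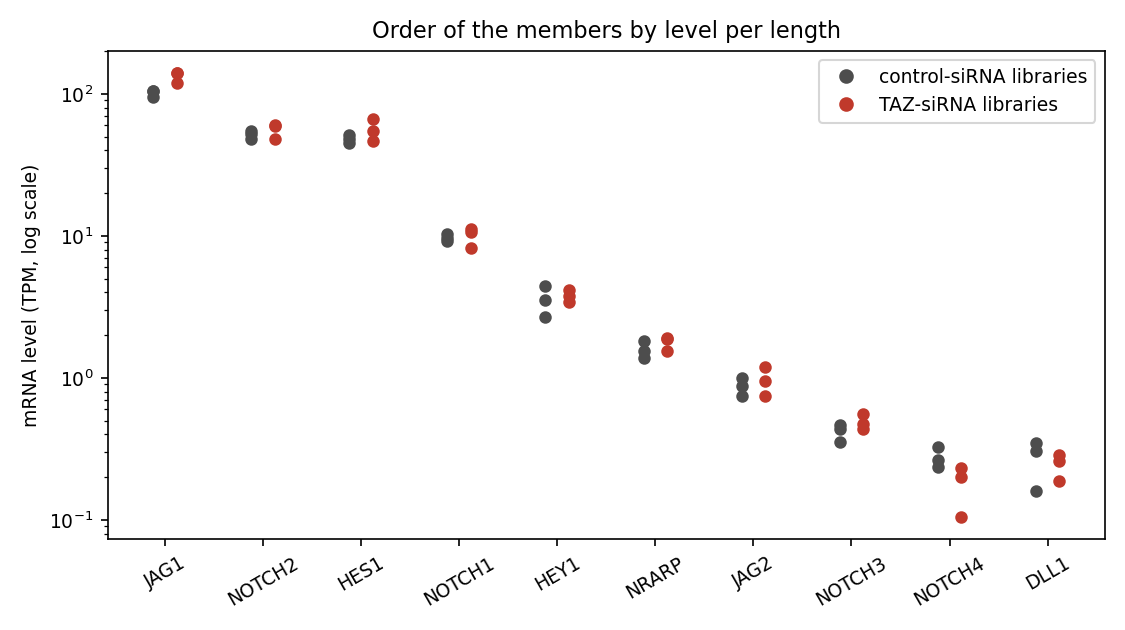
Level per transcript length (y axis, TPM on a log scale) of each Notch gene in each control-siRNA library (grey) and TAZ-siRNA library (red), ordered by the control mean. JAG1 is highest in both groups and is the gene whose red points lie clear above its grey points, NOTCH2 and HES1 overlap each other, and NOTCH4 and DLL1 are lowest.

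Transcript estimates were steady for the abundant genes and not for JAG2 and HEY1. JAG2 has 2 coding models of nearly the same length, 5773 and 5659 bases, and the longer one took 16.7, 3.15 and 80.2% of the JAG2 TPM among the controls and 17.3, 6.25 and 100% after knockdown. Replicate 3 of each group was thus unlike replicates 1 and 2, and the gene's counts behind these shares were 100 to 214 per library. For HEY1, the model of 2197 bases took 61.3, 90.9 and 97.8% with control-siRNA and 93.7, 68.8 and 91.1% with TAZ-siRNA. These are shares of an estimate that divides reads between overlapping models, and they were not tested.

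**Figure D4:**
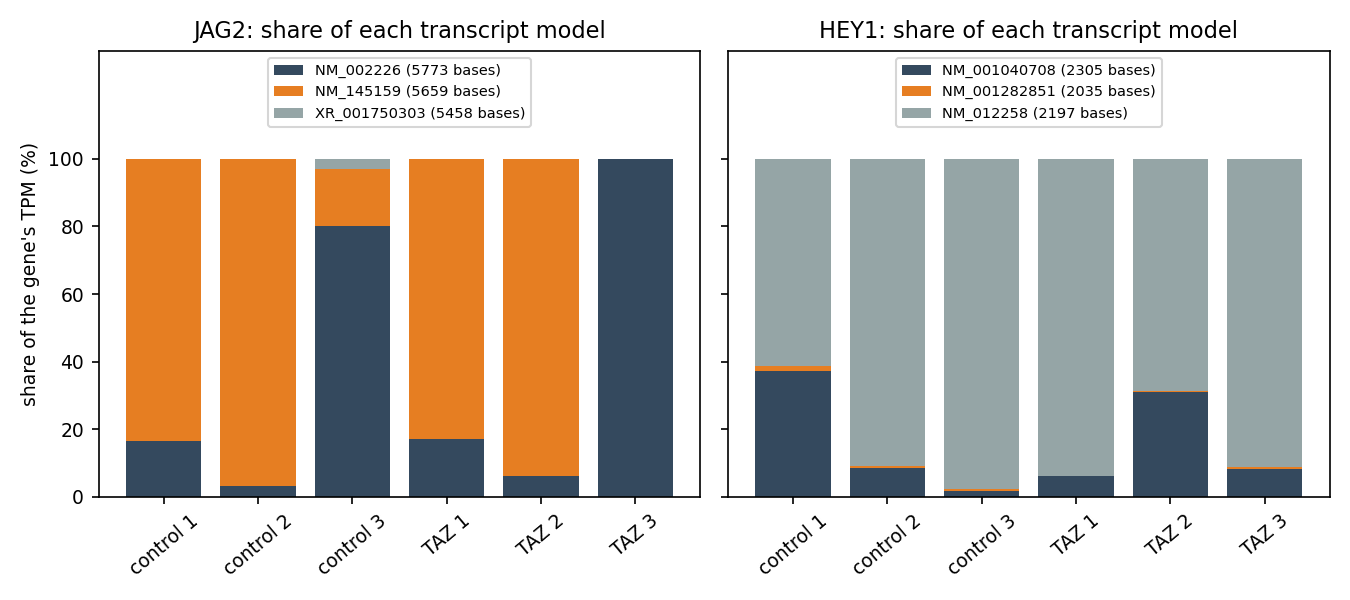
Share of the gene's TPM (y axis, %) assigned to each annotated transcript of JAG2 (left) and HEY1 (right) in each of the 6 libraries, with the transcript's length in the key. The longer JAG2 model holds 80.2% in control-siRNA replicate 3 and 100% in TAZ-siRNA replicate 3 but 17.3% or less in the other 4 libraries, and HEY1 shares vary within both groups.

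The rest of the pathway was taken from a list of 60 further genes, of which 54 passed the expression filter. Of these, 11 (20.4%) were called higher and none lower, beside 22.1% of all genes called, 11.9% higher and 10.2% lower. The median log2 fold change of the 54 was 0.05. At an unadjusted p under 0.05 there were 16 higher and 4 lower, beside 6069 of all 16966 genes tested in either direction. DESeq2 called 13 higher and none lower, beside 23.8% of all genes called (2162 higher and 1872 lower). The count depended on the libraries: leaving out control-siRNA replicate 3 or TAZ-siRNA replicate 1 gave 6 (beside 12.1% and 11.9% of all genes called in those fits), leaving out control-siRNA replicate 2 gave 7 (11.2%), and leaving out TAZ-siRNA replicate 3 gave 24 (33.7%), of which 20 were higher and 4 lower. Correcting for GC content and length gave 12 (29.6% of all genes called), with 10 higher and 2 lower. In the main fit with all 6 libraries, the share called in either direction (20.4%) was near that of all genes (22.1%). By direction it was not, with 20.4% higher beside 11.9% and none lower beside 10.2%. Of the 11, 3 rose by 1.5-fold or more, beside 750 of the 3749 called over all genes that changed by as much in either direction.

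Genes that modify the ligand or the receptor supplied 4 of the 11. These were 2 of 6 enzymes that add sugars to the receptor, 1 of 4 ubiquitin ligases for the ligand and 1 of 3 receptor proteases. The shares were 33.3%, 25% and 33.3% of small groups, beside 11.9% of all genes higher and 22.1% called. NEURL1B, a ubiquitin ligase that promotes uptake of Notch ligands, rose from 6.25, 6.03 and 5.83 CPM among the controls to 12.5, 15.1 and 10.2 CPM after knockdown. That was the largest rise on the list (log2 fold change 1.06, SE 0.13, adjusted p = 4.8e-04, edgeR), with every TAZ-siRNA library above every control library. Its relative NEURL1, named here after its values were seen, was scarce at 0.225, 0.466 and 0.494 CPM against 0.192, 0.122 and 0.233 CPM, and its log2 fold change of -1.07 did not pass the test (adjusted p = 0.092, edgeR). MIB1 and MIB2, the other ligases for the ligands, were at 0.07 and -0.07.

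LFNG, the fringe enzyme that extends O-fucose on the receptor, was at 8.55, 10.8 and 7.62 CPM with control-siRNA and 12.6, 15.1 and 11.0 CPM with TAZ-siRNA. The groups were close but did not overlap, and LFNG rose by 0.52 on the log2 scale (adjusted p = 0.029, edgeR). EOGT, which adds O-linked N-acetylglucosamine to the receptor, rose by 0.24 (adjusted p = 0.047, edgeR). When libraries were left out in turn, LFNG kept its call in 2 of 6 fits and EOGT in 1 of 6.

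FURIN, the protease that cuts the receptor before it reaches the surface, rose from 73.7, 71.5 and 76.6 CPM to 97.5, 100.2 and 91.6 CPM, and every TAZ-siRNA library was above every control library. Its log2 fold change was 0.38 (adjusted p = 7.8e-04, edgeR), and the call held in 6 of 6 fits without a library. The ADAM proteases that make the next cut, ADAM10 and ADAM17, were at 0.09 and -0.06 and were not called.

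In the nucleus, 2 of 9 genes of the activator complex and 3 of 10 corepressors of RBPJ rose (22.2% and 30% of small groups, beside 11.9% of all genes higher and 22.1% called). MAML3, a Mastermind-like coactivator of the Notch intracellular domain, went from 4.84, 5.22 and 5.33 CPM to 8.41, 10.9 and 8.02 CPM, with no overlap between the groups (log2 fold change 0.83, SE 0.12, adjusted p = 0.0014, edgeR). Its relative MAML1 rose by 0.33 (adjusted p = 0.022, edgeR), with the call kept in 2 of 6 fits without a library, and RBPJ itself was at 0.0085 and was not called. L3MBTL3, a chromatin reader that RBPJ brings to Notch target genes to silence them, rose from 13.2, 11.4 and 12.3 CPM to 20, 19.7 and 16.6 CPM. Its groups did not overlap, and the log2 fold change was 0.61 (SE 0.091, adjusted p = 0.0013, edgeR).

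The corepressors TLE3, of the Groucho family, and HDAC1, a histone deacetylase, rose by 0.35 and 0.24 on the log2 scale (adjusted p = 0.0052 and 0.0033, edgeR). The calls of MAML3, L3MBTL3, TLE3 and HDAC1 held whichever of the 6 libraries was left out. Among the genes of receptor trafficking and turnover, 1 of 9 rose (11.1%, beside 11.9% of all genes higher), CDK8, a kinase that marks the intracellular domain for removal, by 0.21 (adjusted p = 0.021, edgeR). The CDK8 call was kept in 3 of 6 fits without a library.

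The other HES and HEY genes showed no call. HES2, HES4, HES6, HES7, HEY2 and HEYL passed the expression filter. Of these 6, 0 passed the test with edgeR or with DESeq2, beside 22.1% and 23.8% of all genes. None of the 6 had an unadjusted p under 0.05, beside 6069 of all 16966 genes tested. The log2 fold changes of the 6 ran from -0.26 to 0.41, with 3 above 0 and 3 below. DLL4, the remaining Delta ligand that was tested, was at -0.11 (adjusted p = 0.741, edgeR).

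**Figure D5:**
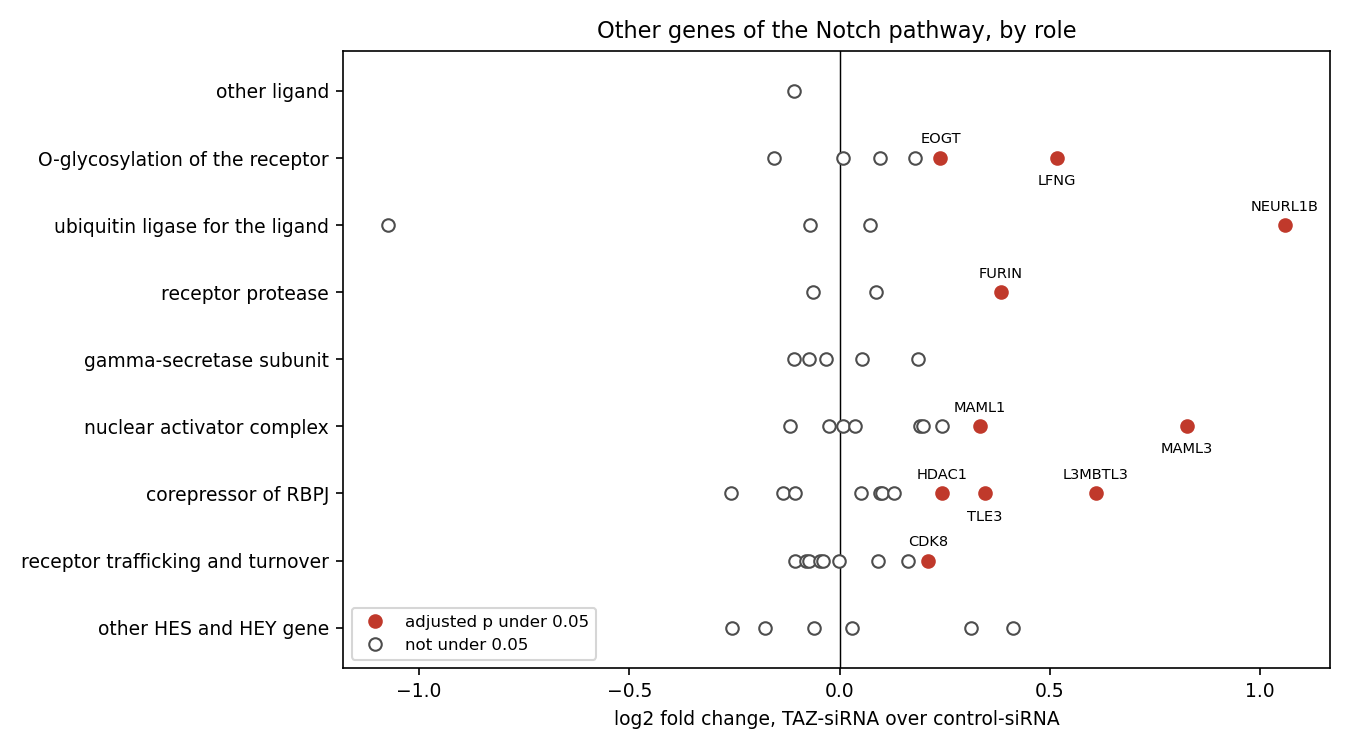
Log2 fold change (x axis, TAZ-siRNA over control-siRNA, edgeR) of 53 of the tested genes of the pathway list, each point 1 gene, in rows by role (y axis); filled points have an adjusted p under 0.05. The 10 filled points all lie above 0, with NEURL1B, MAML3 and L3MBTL3 farthest out, and the row of other HES and HEY genes has none.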

How the data were processed

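Paired-end stranded mRNA libraries were made from MDA-MB-231 cells, 3 per siRNA. Per the study's methods, trimmed reads were aligned by HISAT2 to GRCh38, and StringTie quantified RefSeq genes and transcripts. The deposited estimated counts per gene are whole numbers made by the authors. For the deposited FPKM and TPM, the authors divided by transcript length and library size. Use of strand in counting was not given in the sources used here. Columns were mapped to samples by the labels, and 0 columns of values were left without a sample. Replicate numbers follow the sample descriptions, CTL1 to CTL3 and TAZ1 to TAZ3. The sample titles number the same libraries rep3 to rep5 in each group, so that TAZ-siRNA replicate 3 is titled rep5.

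The groups were compared on the counts with edgeR 4.0.16 (R 4.3.3): TMM factors, filterByExpr with at least 10 counts, robust quasi-likelihood fits, and Benjamini-Hochberg adjustment across every tested gene with a threshold of 0.05. Intervals of 95% and floors of 3 counts cover, respectively, the spread between libraries and counting error only. Alternatives were DESeq2 1.42, upper-quartile factors, other filters, a replicate block, log2 FPKM in limma 3.58.1 with 1 or 0.1 added, a threshold of 0.01, each library left out, a spline (5 degrees of freedom) on GC content and length, and NOTCH2 summed with its copies. GC content came from GENCODE 44 and was available for 89.7% of genes tested, 10 of 10 Notch genes and 54 of 54 genes of the pathway list. Shares were compared by exact permutation over libraries. The fits were tested on simulated data. All 10 Notch genes were named, with WWTR1, overlapping or copied genes and, in each role of the pathway list, up to 3 called genes by size of change. Some genes of the list that were not called were named outside this rule. These were NEURL1, MIB1, MIB2, ADAM10, ADAM17, RBPJ, DLL4 and the other HES and HEY genes that were tested. The genes, lists and tests were chosen with earlier results of these data known. Upstream sequences are from RefSeq. One gene of the pathway list is counted but not otherwise reported here.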

Additional observations from a re-analysis of the deposited data

How the results depend on the processing

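JAG1 stayed higher and called under all 17 alternatives, and WWTR1 stayed lower. The number of Notch genes called was 1 in most settings. It was 3 when TAZ-siRNA replicate 3 was left out (range 1 to 3 over the libraries; 33.7% of all genes called), and 3 with the GC and length correction, alone (29.6%) or with the replicate block (33.6%), with JAG1 higher and NOTCH1 and NOTCH4 lower. The count on the pathway list was 11, 7 with limma at either pseudocount (16.6 and 16.7% of all genes), 6 at an adjusted p under 0.01 (10.1%), 6 to 24 when a library was left out (11.2 to 33.7%), and 17 with the GC and length correction together with the replicate block. Deviations from the group mean correlated little between libraries of the same replicate number (-0.017, 0.0086 and 0.070 for replicates 1, 2 and 3). Replicate 3 was the best match of its own number for both groups, replicate 2 only for the TAZ-siRNA library, and replicate 1 for neither. Whether the replicate numbers mark paired preparations was not tested further. A replicate block alone called 1 Notch gene and 16 genes of the list (30.2% of all genes called).

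Some log2 fold changes that were not called changed sign. With the GC and length correction, NOTCH2 became -0.062 (also -0.062 with the block) and JAG2 -0.028 (-0.038 with the block). When single libraries were left out, NOTCH1 ranged from -0.081 to 0.074, with 0.017 lacking control-siRNA replicate 1, and JAG2 from -0.073 to 0.21. DLL1 ranged from -0.49 to 0.0036, and HEY1 from -0.13 to 0.25, with -0.058 lacking TAZ-siRNA replicate 3. The HES1 share of target TPM differed by 0.436 points, and by -0.743 to 1.63 points over the libraries left out, with -0.570 lacking control-siRNA replicate 3. The NOTCH2 and JAG1 shares kept their direction. The causes were not tested. NOTCH3, NOTCH4, JAG2, DLL1, HEY1 and NRARP rest on 18 to 263 counts per library, which limits their precision.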
